A study of Mus musculus with 18 samples.

Results

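Immunoreceptor signalling is represented here by 9 genes that act downstream of Fc receptors and of TREM receptors, found by symbol among the 54547 gene identifiers of the series. They are the receptor gene Fcgr3, the adaptor genes Tyrobp and Fcer1g, the kinase genes Lyn and Syk, the effector genes Plcg2 and Vav1, and the phosphatase genes Inpp5d and Ptpn6. Inpp5d and Lyn were selected on the measured fall of their counts with PLX5622 in these same libraries, so their difference between the diets is described without a test. Gene coordinates below are those of GENCODE M21 on GRCm38, and since counts are given by gene no exon or UTR can be named. Overlaps with other gene models are of whole gene spans and do not show where the reads fell. The other 7 were chosen as their partners in the pathway and not for a measured value, though with earlier results of these data known, and they were tested.

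The tissue was medial prefrontal cortex, taken at postnatal day 100 from C57BL6/J mice, 9 animals on a control diet and 9 on chow with PLX5622 at 1200 mg/kg. PLX5622 inhibits CSF1R, a receptor that keeps microglia (brain macrophages) alive. The labels describe 21 days of PLX5622 followed by 44 days in which 15% ethanol was offered every other day, with tissue collected 24 hours after the last drink. That text is the same on all 18 libraries, so it does not show what each control animal received, and no group without ethanol is compared here. Whether PLX5622 was given during the drinking period is not stated in it. Each library carries 1 animal number in the labels, and p-values measure the spread between these libraries. Animal numbers of the diets do not overlap, and the diet and anything tied to those numbers cannot be told apart.

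Fc receptors and TREM receptors have no kinase of their own. The activating ones among them pair with small membrane adaptors whose tails carry a tyrosine motif called ITAM. Src-family kinases such as Lyn phosphorylate the ITAM, Syk docks on it, and phospholipase C and exchange factors for small GTPases carry the signal on. The lipid phosphatase encoded by Inpp5d, SHIP1, and the tyrosine phosphatase encoded by Ptpn6, SHP1, dampen this signal. In the brain these genes are expressed mainly by microglia and other macrophages, and several are studied as genes of Alzheimer's disease risk. Many genes of this kind are controlled by PU.1, a transcription factor of the ETS family that binds the PU-box, GAGGAA.

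The PU-box was looked for on both strands of the RefSeq promoters of the members (build GRCm38.p6), each 300 bases long from 250 before to 50 after a start of the gene. Promoters were listed for 7 members, Lyn and Tyrobp not among them. Of the 9 promoters of these 7 genes 5 held the motif, which belong to 4 genes, against 28.3% of the 32851 promoters of this length. The promoters of Fcgr3 overlap and hold the same match, which is thus counted more than once. The 28.3% is a share of promoters and not of genes. The windows of 30 bases around each match follow, since these are the stretches in which the members can be compared by eye. Capitals mark the motif, which reads TTCCTC where it lies on the other strand.
Inpp5d, first match: ggtttctataatGAGGAAgttctgtgcagc
Inpp5d, second match: gtgcagctcagtTTCCTCtccctcgctgag
Syk: tgctgacactttGAGGAAaagccacttccc
Fcgr3: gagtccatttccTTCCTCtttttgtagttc
Vav1: acagtcacagaaGAGGAAgtggtgttgtag
The Inpp5d windows are chr1:87620280-87620309 and chr1:87620303-87620332 on the plus strand and overlap at their ends. The Syk window is chr13:52596861-52596890 on the plus strand, in the second of its promoters. The Fcgr3 window is chr1:171059392-171059421 on the minus strand, shared by both of its promoters, and the Vav1 window is chr17:57279077-57279106 on the plus strand. Relative to the annotated start the motif was centred at -17 and 6 in Inpp5d, at -6 in Syk, at -3 or -12 in Fcgr3 and at -8 in Vav1. The letters were not found in the promoters of Plcg2, Fcer1g and Ptpn6 or in the first promoter of Syk. A match of letters is a description of the sequence, and no binding was measured.

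Library totals ran from 990136 to 1742680 counts (median 1384979), so that 1 CPM, the unit of counts scaled to the library total, is about 1 to 2 counts. Markers of neurons were all present, 9 of 9, at a summed 9055 ± 195 CPM for the controls and 8977 ± 189 CPM for PLX5622 (SD, n = 9). The 19 homeostatic microglial genes, none of them a member, summed to 551 ± 47 and 174 ± 30 CPM, and 15 of the 15 that could be tested fell. In such tissue RNA fewer cells of a type and less RNA per cell cannot be told apart. Control 3 stood apart from the other controls. It held 272 of the 382 control counts of 12 blood myeloid markers, a summed 206 CPM where the next control had 20.9, and it was also the highest control in the summed microglial and endothelial markers. It was the highest control in 6 of the 9 members, and the differences of the members between the diets are therefore given with and without it. Markers of border macrophages, such as Mrc1, summed to 28.2 ± 4.4 CPM in controls, from 23.5 to 35.5, and to 6.80 ± 3.46 with PLX5622, from 2.69 to 11.1 (exact permutation test, two-sided p = 4.1e-05), with all 10 detected. Here too control 3 was the highest control, at 35.5 CPM where the next had 32.0. Lymphocyte markers summed to 65.7 ± 7.2 CPM (57.6 to 77.9) and 56.3 ± 6.5 CPM (43.4 to 64.0), lower with PLX5622 by the exact permutation test (two-sided p = 0.0090). Those other than Ighm and Trbc2 totalled 22 counts for the controls and 16 for PLX5622 over 9 genes, with Cd3g at 0. The part of these cell types in the levels of the members was not tested.

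Of all 11051 genes that passed the count filter, 39 were lower with PLX5622, which is 0.353%, and 5 were higher, which is 0.0452% (quasi-likelihood test of edgeR, threshold 0.05 on the p adjusted by Benjamini-Hochberg). Every PLX5622 library lay below every control library in 0.199% of these genes. Of the members Inpp5d, Lyn, Tyrobp and Fcgr3 passed the filter, and Fcer1g, Syk, Plcg2, Ptpn6 and Vav1 did not. The filter asks for about 10 counts in as many libraries as a diet has, so a gene can pass through the control libraries alone. Of the 2 members that passed it and were not picked for their fall, 1 was called lower, Tyrobp. The members under the filter were compared by an exact permutation test of their CPM, which 5.23% of the 3559 genes under the filter with a mean of at least 2 counts passed as lower without adjustment and 1.04% after adjustment over all of them. The edgeR fit without a filter, which called 0.379% of 24284 genes lower and 0.0824% higher, is given beside it. Limma-voom called 0.353% of the filtered genes lower and 0.0362% higher.

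**Figure D1:**
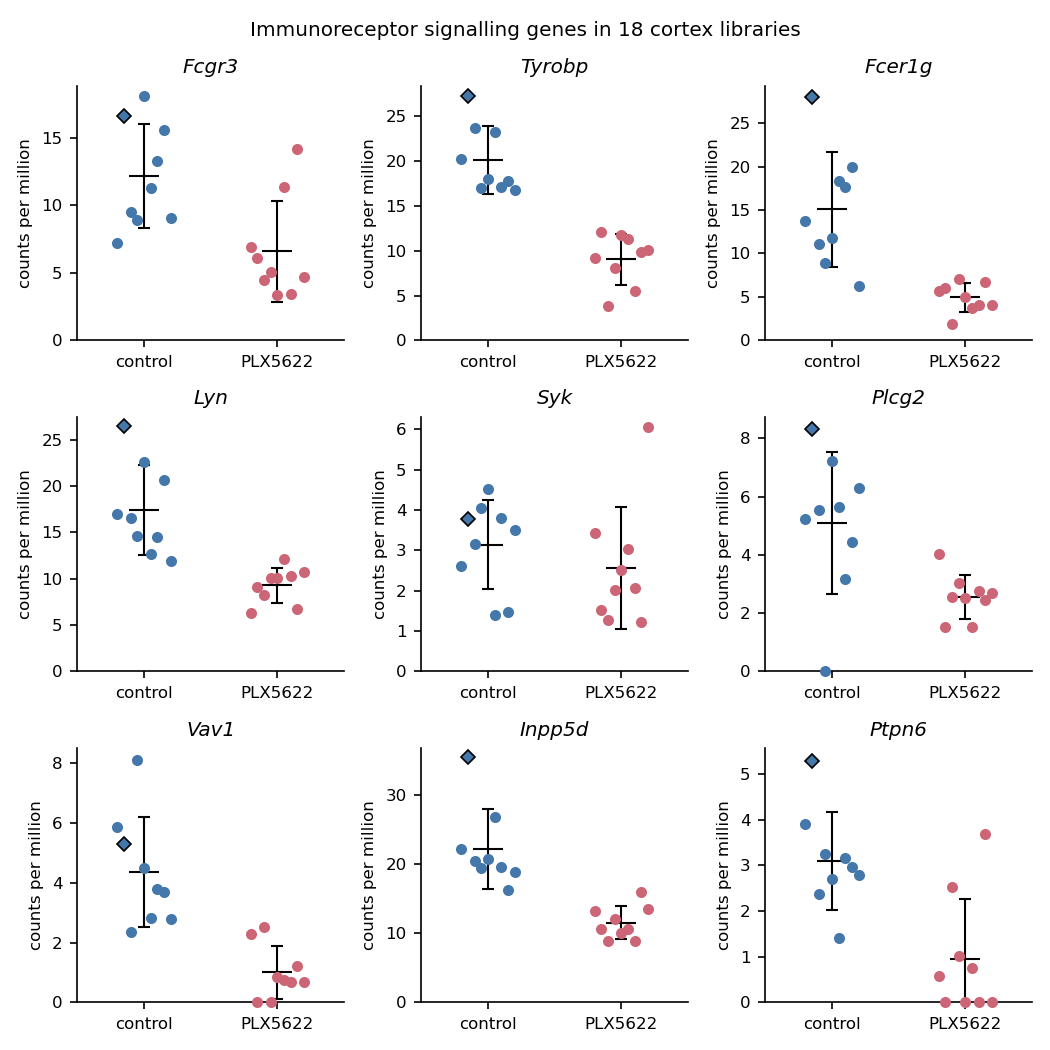
CPM of each member in the 9 control (blue) and 9 PLX5622 (red) libraries, 1 point per library, with the mean and SD as black bars; the black-edged diamond is control 3 and the horizontal place of a point within a diet has no meaning. The diets do not overlap in Inpp5d and Tyrobp, they overlap widely in Syk, and control 3 is the highest control in 6 panels.

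Fcgr3 encodes the low-affinity IgG receptor that signals through the Fcer1g chain. It was at 7.18, 11.3 and 18.1 CPM (lowest, median and highest) in the controls and at 3.35, 5.05 and 14.2 CPM with PLX5622. The diets overlapped, since PLX5622 34 with 23 counts and PLX5622 31 with 15 lay among the controls while the other 7 lay below every control. Mean CPM were 12.2 ± 3.9 and 6.61 ± 3.73 (SD, n = 9 each). The fitted difference of -0.83 ± 0.22 (log2, SE) did not pass over all genes (edgeR adjusted p = 0.097), with 8 of 9 PLX5622 libraries below the control mean. The call depended on the settings. Limma-voom gave an adjusted p of 0.041 and edgeR without the filter 0.016, while DESeq2 gave 0.174. With the filter, leaving out PLX5622 34, PLX5622 31 or control 2 brought the edgeR adjusted p to 0.0033, 0.028 and 0.037. Without control 3 the fitted difference was -0.76 ± 0.23 (log2, SE, edgeR adjusted p = 0.271). The edgeR fit without the filter then gave -0.76 ± 0.21 (adjusted p = 0.082), so that its call was lost as well. The spread of Fcgr3 with PLX5622 was wider than counting alone gives, at a chi-square of 3.05 per degree of freedom, where 1 is the value of counting error. Fcgr3 lies on chromosome 1 from 171051174 to 171064935 on the minus strand, near related Fc receptor genes with similar sequence, and its reads are uncertain as far as they could match those genes as well.

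Tyrobp encodes DAP12, the ITAM adaptor of TREM2 and of several other myeloid receptors. It was at 16.8, 18.1 and 27.2 CPM (lowest, median and highest) in the controls and at 3.81, 9.85 and 12.1 CPM with PLX5622. All 9 PLX5622 libraries lay below every control, with PLX5622 27 and PLX5622 32 the lowest at 3.81 and 5.49 CPM. Mean CPM went from 20.1 ± 3.8 to 9.08 ± 2.85 (SD, n = 9 each), which leaves 45.1% of the control level. The fitted fall of Tyrobp was -1.16 ± 0.17 (log2, SE, edgeR adjusted p = 1.02e-06). Without control 3 it was -1.09 ± 0.17 (edgeR adjusted p = 9.0e-06). The spread of Tyrobp in the controls was that of counting error, at a chi-square of 0.94 per degree of freedom. The gene lies on chromosome 7 from 30413760 to 30417585 on the plus strand and no other gene model overlaps it.

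Fcer1g encodes the common gamma chain, the ITAM adaptor of several Fc receptors. Its counts ran from 9 to 37 in the controls and from 3 to 11 with PLX5622, at 6.29, 13.7 and 28.0 CPM (lowest, median and highest) against 1.90, 5.03 and 7.07 CPM. Only control 11, at 6.29 CPM, lay within the range of the PLX5622 libraries. The mean was 15.1 ± 6.6 CPM in controls and 4.95 ± 1.65 CPM with PLX5622 (SD, n = 9 each), 3.05-fold lower, with all 9 PLX5622 libraries below the control mean. This passed the exact permutation test (two-sided p = 0.00012, adjusted 0.022 over the 3559 genes). EdgeR without the filter gave -1.62 ± 0.21 (log2, SE, adjusted p = 1.1e-11) and DESeq2 -1.63 ± 0.28 (adjusted p = 2.8e-06). Without control 3, which had the 37 counts, Fcer1g passed the filter and was at -1.47 ± 0.22 (edgeR adjusted p = 5.4e-06). The controls were spread beyond counting error, at a chi-square of 3.87 per degree of freedom, and the PLX5622 libraries were not, at 0.80. Fcer1g lies on chromosome 1 from 171229572 to 171234365 on the minus strand, with no other gene model over it.

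Lyn encodes a Src-family kinase that phosphorylates both ITAMs and the inhibitory motifs called ITIMs. It was at 11.9, 16.6 and 26.5 CPM (lowest, median and highest) in the controls and at 6.31, 10.1 and 12.1 CPM with PLX5622. Only PLX5622 31, at 12.1 CPM, reached into the control range, above control 11 at 11.9 CPM. As a description of the difference for which it was picked, Lyn was at -0.91 ± 0.17 (log2, SE), 53.3% of the control level, and at -0.82 ± 0.17 without control 3, its highest control. The gene lies on chromosome 4 from 3678115 to 3813122 on the plus strand, with gene models on the other strand over 10.6% of its span.

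Syk encodes the kinase that docks on phosphorylated ITAMs. Its counts totalled 38 for the controls and 33 for PLX5622, at 1.41, 3.49 and 4.52 CPM (lowest, median and highest) against 1.23, 2.06 and 6.06 CPM. The diets overlapped widely, and the highest of all 18 libraries was PLX5622 35 with 9 counts. PLX5622 34 at 1.23 CPM and PLX5622 27 at 1.27 CPM lay below every control. The means were 3.14 ± 1.102 and 2.57 ± 1.51 CPM (SD, n = 9 each, exact permutation p = 0.375, two-sided), with 7 of 9 PLX5622 libraries below the control mean. EdgeR without the filter gave -0.25 ± 0.36 (log2, SE), so that neither no change nor a fall like that of Lyn lies beyond 2 standard errors, and at this depth no difference was detectable. The CPM difference of Syk rests in part on PLX5622 35, since it was -0.573 over all libraries and -1.01 without that library (exact permutation p = 0.052). Without control 3 it was -0.494 (exact permutation p = 0.470). Syk lies on chromosome 13 from 52583173 to 52648792 on the plus strand.

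Plcg2 encodes a phospholipase C that cleaves a membrane lipid into the second messengers inositol trisphosphate and diacylglycerol. Its counts totalled 62 for the controls and 33 for PLX5622. Control CPM were 0, 5.52 and 8.31 (lowest, median and highest) and PLX5622 CPM 1.51, 2.54 and 4.02, so that 7 controls lay above every PLX5622 library while control 5 had no count. The means were 5.09 ± 2.42 and 2.56 ± 0.76 CPM (SD, n = 9 each). The exact permutation test gave p = 0.0089 (two-sided, 9 of 9 PLX5622 libraries below the control mean) but 0.297 when adjusted over the 3559 genes, and edgeR without the filter gave -0.94 ± 0.32 (log2, SE, adjusted p = 0.284). Without control 3, its highest control, the exact permutation p was 0.018 and edgeR without the filter gave -0.83 ± 0.33 (adjusted p = 0.624). Plcg2 was thus not called, although its value was close to those of Inpp5d and Lyn. It lies on chromosome 8 from 117498291 to 117635142 on the plus strand.

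Vav1 encodes an exchange factor that activates Rac, a small GTPase. It had 3 to 10 counts in each control, 53 in all, and 0 to 4 in each PLX5622 library, 14 in all. Control CPM were 2.37, 3.79 and 8.11 (lowest, median and highest) and PLX5622 CPM 0, 0.757 and 2.54, with only PLX5622 27 above the lowest control. The means were 4.36 ± 1.83 and 1.00 ± 0.89 CPM (SD, n = 9 each), 4.35-fold lower with PLX5622. This passed the exact permutation test (two-sided p = 8.2e-05, adjusted 0.018 over the 3559 genes, 9 of 9 PLX5622 libraries below the control mean). EdgeR without the filter gave -1.89 ± 0.40 (log2, SE, adjusted p = 0.0011) and DESeq2 an adjusted p of 0.016. Without control 3 edgeR without the filter gave -1.86 ± 0.42 (adjusted p = 0.0031), and the exact permutation p was 0.00012. Vav1 lies on chromosome 17 from 57279100 to 57328031 on the plus strand.

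Inpp5d encodes SHIP1, which removes a phosphate from the lipid messenger that phosphoinositide kinases make at the activated receptor. It was at 16.3, 20.5 and 35.5 CPM (lowest, median and highest) in the controls and at 8.89, 10.6 and 16.0 CPM with PLX5622. The diets did not overlap, though only narrowly, between PLX5622 34 at 16.0 and control 10 at 16.3 CPM. As a description of the difference for which it was picked, Inpp5d was at -0.93 ± 0.15 (log2, SE), 51.9% of the control level, and at -0.82 ± 0.15 without control 3, which at 35.5 CPM was the highest. Inpp5d lies on chromosome 1 from 87620312 to 87720507 on the plus strand and no other gene model overlaps it.

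Ptpn6 encodes SHP1, a tyrosine phosphatase recruited by ITIMs. It had 2 to 7 counts in each control, 38 in all, and 13 counts with PLX5622. The PLX5622 counts were uneven, since 6 came from PLX5622 34 and 4 from PLX5622 27, while 4 libraries had none. Control CPM were 1.41, 2.96 and 5.29 (lowest, median and highest) and PLX5622 CPM 0, 0.574 and 3.69. The means were 3.10 ± 1.07 and 0.953 ± 1.316 CPM (SD, n = 9 each). The exact permutation test gave p = 0.0025 (two-sided, 8 of 9 PLX5622 libraries below the control mean) and 0.133 when adjusted over the 3559 genes, and edgeR without the filter -1.52 ± 0.45 (log2, SE, adjusted p = 0.108), so Ptpn6 was not called. Without control 3, its highest control, the exact permutation p was 0.0051 and edgeR without the filter gave -1.40 ± 0.47 (adjusted p = 0.335). Ptpn6 lies on chromosome 6 from 124720707 to 124738714 on the minus strand, and a gene model on the other strand, Gm20531, covers 32.6% of its span.

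The adaptors and the receptor were set against each other within each library, a comparison of 3 pairs added after their values had been seen. The log2 ratio of Fcer1g to Tyrobp differed between the diets by -0.24 (exact permutation p = 0.261, two-sided), that of Fcgr3 to Tyrobp by 0.25 (exact permutation p = 0.319) and that of Fcgr3 to Fcer1g by 0.49 (exact permutation p = 0.0775). Without control 3 these were -0.18, 0.26 and 0.43 (exact permutation p = 0.410, 0.341 and 0.129). The ratio of Fcgr3 to Tyrobp differed by 0.14 without PLX5622 34 (exact permutation p = 0.555). None passed over all libraries, and the last ranged from 0.37 to 0.59 when 1 library was left out, with an exact p of 0.037 to 0.046 without control 7, control 11, PLX5622 28 or PLX5622 29. A difference between the receptor and its adaptor was therefore not detectable at this depth.

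Most members have a relative that is expressed more widely, and the fitted differences of most relatives that passed the count filter lay near 0. Inppl1, which encodes SHIP2, was at -0.02 ± 0.19 (log2, SE), Fyn, a Src-family kinase of neurons and glia, at -0.01 ± 0.06, Plcg1 at -0.01 ± 0.08, Ptpn11, which encodes SHP2, at 0.05 ± 0.08, and Vav3 at 0.02 ± 0.15, with edgeR adjusted p of 0.959 or more. Their control and PLX5622 levels were 10.9 ± 4.7 and 10.5 ± 2.1 CPM for Inppl1 and 141 ± 9 and 140 ± 9 CPM for Fyn (SD, n = 9 each). Of those that passed, the exception was Vav2, at -0.66 ± 0.20 from 11.99 ± 3.86 to 7.44 ± 2.59 CPM, which was not called (edgeR adjusted p = 0.214). Fcgr2b, the relative of Fcgr3, did not pass the filter and was lower, with 54 counts in the controls and 10 with PLX5622. EdgeR without the filter gave it -2.36 ± 0.43 (log2, SE, adjusted p = 2.8e-05). The log2 ratio of Inpp5d to Inppl1 differed by -0.88 between the diets and that of Lyn to Fyn by -0.79, given without a test. Plcg2 and Plcg1 were the only other pair with a mean of at least 5 counts for each gene. Their log2 ratio differed by -0.58 (exact permutation p = 0.089, two-sided). Without control 3 this difference was -0.49 (exact permutation p = 0.158). Leaving out 1 library changed the call for 1 of the 18 only. That was control 5, in which Plcg2 had no count (-0.85, exact permutation p = 0.00021). The relatives Zap70, Hcst and Cd247 had 14, 10 and 5 counts in all controls and 25, 6 and 4 with PLX5622, too few for a comparison.

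**Figure D2:**
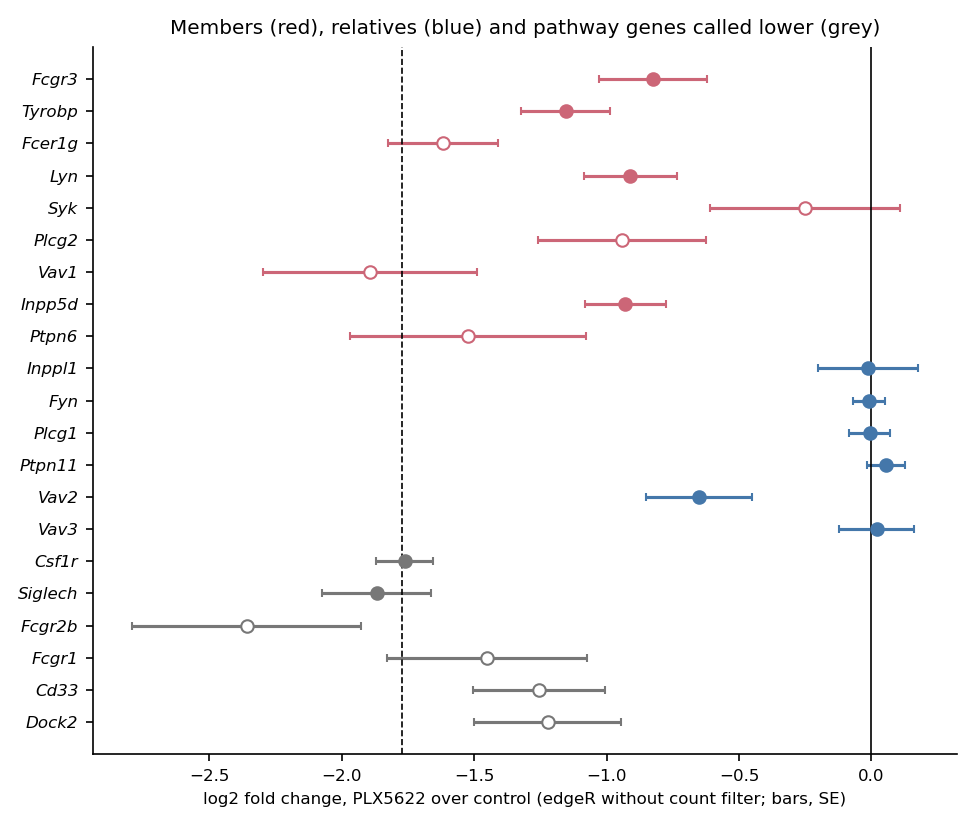
Log2 fold change of PLX5622 over control with its SE from edgeR without a count filter for the 9 members (red), 6 relatives (blue) and 6 of the 7 pathway genes called lower in that fit (grey); filled points passed the count filter, and the dashed line is the median of the 15 microglial genes tested, -1.77. The members lie between -0.25 (Syk) and -1.89 (Vav1), and the blue relatives other than Vav2 lie near 0. Fcgr2b, the relative of Fcgr3, is drawn in grey at -2.36.

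Further genes of the pathway were taken from lists of 75 genes. After the count filter 31 could be tested and 2 were lower, none higher, with a median of -0.03 (log2) against 0.0001 over all genes tested. The 2 were Csf1r at -1.77 ± 0.13 and Siglech at -1.87 ± 0.21 (log2, SE, edgeR adjusted p = 1.6e-12 and 1.4e-10), receptors that also stand on the microglial list. Siglech, a lectin that pairs with DAP12 in mouse, went from 16.9 ± 4.0 to 4.62 ± 1.78 CPM (SD, n = 9 each). Without the filter 72 could be tested and 7 were lower, none higher. Besides those 2 they included Fcgr2b at -2.36 ± 0.43, Fcgr1 at -1.45 ± 0.38, Cd33 at -1.26 ± 0.25 and Dock2 at -1.22 ± 0.28 (log2, SE), with edgeR adjusted p of 2.8e-05, 0.030, 0.00027 and 0.0040.

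Fcgr2b, the inhibitory IgG receptor that recruits SHIP1, totalled 54 counts over the controls and 10 over PLX5622. Cd33, an ITIM-bearing lectin, had 112 and 48 counts. Fcgr1, the high-affinity IgG receptor, had 52 and 19, and Dock2, an activator of Rac in blood cells, 89 and 39. DESeq2 called 5 of 63 pathway genes, but not Fcgr1 (adjusted p = 0.132) or Dock2 (0.061), where 0.397% of the 16365 genes with an adjusted p were lower and 0.0428% higher. Trem2, the receptor best known as a partner of DAP12, was listed at 0 in all 18 libraries, and so was Trem1. No other gene model overlaps Trem2. How reads were assigned to either gene was not tested, so the 0 is not read as a level of expression.

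Of the pathway genes that passed the filter, those with the smallest p in each list that were not called were also looked at. Among inhibitory receptors Lair1 was at -0.66 ± 0.18 (log2, SE, edgeR adjusted p = 0.096) and Sirpa, which neurons also express, at 0.01 ± 0.05. All 9 PLX5622 libraries lay below every control in Lair1, as in 0.199% of the genes that passed the filter. Its levels were 12.5 ± 1.7 CPM for the controls and 7.90 ± 1.90 CPM for PLX5622 (SD, n = 9 each). The diets overlapped in the other genes of this paragraph. Among kinases Prkcd was at -0.79 ± 0.22 (adjusted p = 0.117), Csk at -0.08 ± 0.17 and Src at -0.05 ± 0.09. Among adaptors and scaffolds Pag1 was at -0.24 ± 0.11, Skap2 at -0.17 ± 0.13 and Cbl at -0.05 ± 0.09. Among lipid enzymes Pik3cb was at -0.17 ± 0.11, Pik3r1 at 0.06 ± 0.06 and Pik3cd at -0.13 ± 0.13. Ptprj, a phosphatase, was at 0.09 ± 0.07, and among effectors Bcl10 was at 0.25 ± 0.17 and Malt1 at 0.20 ± 0.17, none of them called.

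The members were also measured against the microglial genes of the same library, as log2 CPM minus the mean log2 CPM of the 19 genes. That mean was 4.51 ± 0.06 for the controls and 2.92 ± 0.22 for PLX5622 (SD, n = 9), a difference of -1.59. Nearly every gene stands higher on this measure with PLX5622, 99.9% of those that passed the filter and 99.3% of those under it by the exact permutation test, so a member's rise says only that it fell by less than these genes. Tyrobp rose on it by 0.51 (two-sided exact permutation p = 0.0088, 6 of 9 PLX5622 libraries above every control) and Fcgr3 by 0.77 (p = 0.0038, also 6 of 9). Fcer1g was at 0.27 (exact permutation p = 0.214, 0 of 9), and at 0.16 without control 11 (exact permutation p = 0.405). Inpp5d and Lyn were higher by 0.73 and 0.79, each with 7 of 9 PLX5622 libraries above every control, given without a test. Without control 3 the values were 0.56 for Tyrobp, 0.81 for Fcgr3 and 0.38 for Fcer1g (exact permutation p = 0.0072, 0.0039 and 0.070), and 0.81 for Inpp5d and 0.86 for Lyn.

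The 4 members with the fewest counts are read with more care on this measure, since the log scale with a prior count of 2 understates a fall at a few counts. Syk and Plcg2 rose by 1.36 and 1.01 (two-sided exact permutation p = 4.1e-05 and 8.2e-05; with 48620 assignments no smaller p than the first is possible), also with prior counts of 0.5 and 5. Ptpn6 was at 0.54 (exact permutation p = 0.035) and Vav1 at 0.32 (p = 0.180), but with a prior count of 0.5 both were on the other side, at -0.087 and -0.18, so their direction is not settled. Vav1 was at 0.19 without PLX5622 27 (exact permutation p = 0.348). Without control 3 the values were 1.38 for Syk, 1.09 for Plcg2, 0.61 for Ptpn6 and 0.34 for Vav1 (exact permutation p = 8.2e-05, 4.1e-05, 0.020 and 0.177). Leaving out 1 library ended the call of Ptpn6 for 9 of the 18 libraries, with an exact p of 0.050 to 0.076. These were control 4, 7, 8, 9 and 10 and PLX5622 27, 28, 31 and 34.

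**Figure D3:**
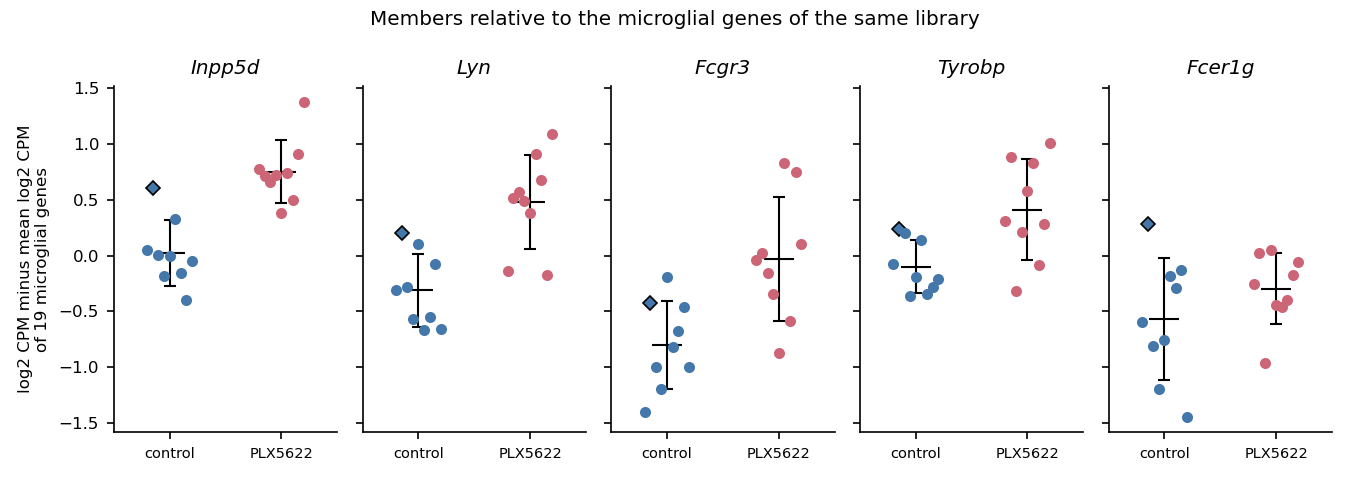
Log2 CPM of the 5 members with the most counts minus the mean log2 CPM of 19 microglial genes in the same library, 1 point per library, with the mean and SD as black bars; the diamond is control 3. Inpp5d, Lyn, Fcgr3 and Tyrobp sit higher with PLX5622 (mean differences 0.73, 0.79, 0.77 and 0.51), while the diets overlap in Fcer1g (0.27).

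Whether a member follows the microglial genes from animal to animal was asked within each diet for the 6 members with a mean of at least 5 counts, which makes 12 relations over 9 libraries each. None passed after adjustment over the 12. The highest were those of Fcer1g, with Pearson's r of 0.67 in controls (exact permutation p = 0.048, adjusted 0.285) and 0.68 with PLX5622 (exact permutation p = 0.042, adjusted 0.285). Spearman's rho was 0.52 (exact permutation p = 0.162, adjusted 0.647) and 0.75 (exact permutation p = 0.025, adjusted 0.306). Without the 2 libraries farthest from the median microglial level r was 0.01 in controls and 0.78 with PLX5622, so the relation in controls rests on those libraries, and without control 3 alone it was 0.51. For Inpp5d r was 0.45 in controls and 0.30 with PLX5622, with rho of 0.30 and 0.33, and for Lyn 0.44 and -0.50, with rho of 0.38 and -0.58 (exact permutation p of 0.108 or more, adjusted 0.546 or more). Without the 2 farthest libraries these r were -0.20 and 0.69 for Inpp5d and -0.45 and -0.22 for Lyn. The others, Plcg2, Tyrobp and Fcgr3, had r of -0.38 to 0.31 and rho of -0.30 to 0.25 (exact permutation p of 0.313 or more), and r of -0.83 to 0.58 without the 2 farthest libraries. Spread of the microglial level was small in the controls, from 4.41 to 4.60, so little could be followed there.

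The genes whose log2 CPM ran most like those of a member over all 18 libraries included C1qb, C1qc, Laptm5 and Siglech of the microglial list, a description in which both diets take part and which therefore repeats their difference. Among 10989 other genes Inpp5d ran most like Ctss (r = 0.91), C1qb (0.89) and Tyrobp (0.88). Lyn ran most like Ly86 (r = 0.83), C1qc (0.82) and Laptm5 (0.80). Tyrobp ran most like Siglech (r = 0.93), Laptm5 (0.89) and Inpp5d (0.88), and Fcgr3 most like Ctss (r = 0.82), Lcp1 (0.80) and C1qc (0.79). With each diet's mean removed the list was another one. The nearest genes were then Inpp5f for Inpp5d (r = 0.78), Cnn2 for Lyn (0.83), Hexa for Tyrobp (0.79) and 2810001G20Rik for Fcgr3 (0.82). Each r was the highest of 10989 over 18 libraries. How high the highest would reach by chance was not tested, so these genes are not read as partners of the members. None of the 12 nearest genes within diets was on the microglial list, and their edgeR log2 fold changes ran from -0.24 to 0.20.

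**Figure D4:**
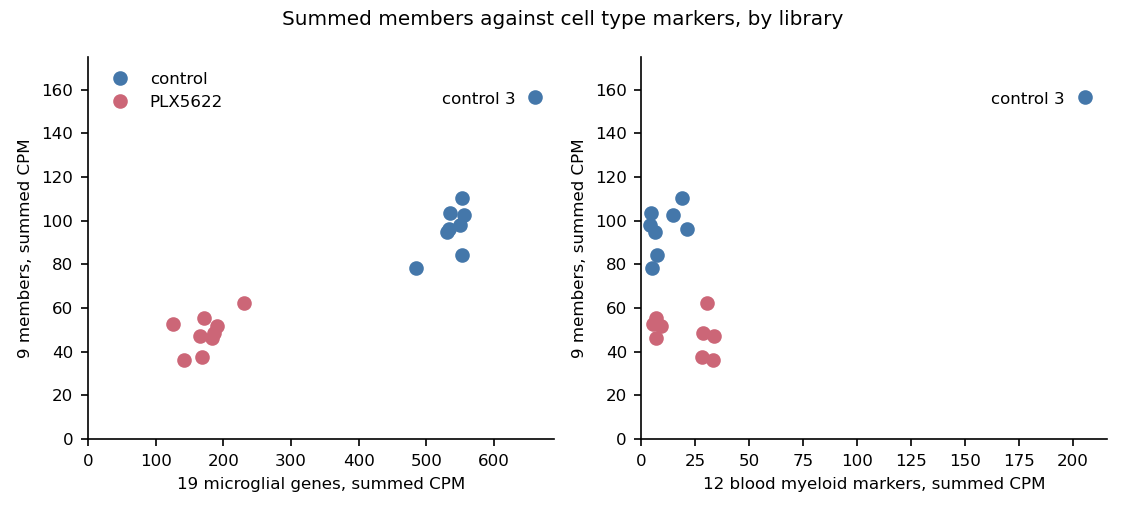
Summed CPM of the 9 members in each library against the summed CPM of 19 microglial genes (left) and of 12 blood myeloid markers (right), controls in blue and PLX5622 in red. The members sum to 78.3 to 157 CPM in controls and to 36.2 to 62.2 CPM with PLX5622, and control 3 stands at the upper right of both panels.

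Summed over the 9 members, which include the 2 picked for their fall, the controls held 78.3 to 157 CPM and the PLX5622 libraries 36.2 to 62.2 CPM. Control 3 was the highest control at 157 CPM and control 7 the next at 110 CPM. Control 11 was the lowest control at 78.3 CPM, and PLX5622 34 the highest and PLX5622 27 the lowest of the treated libraries. The blood myeloid markers of PLX5622 libraries ran from 5.38 to 33.4 CPM and those of controls other than control 3 from 3.92 to 20.9 CPM, and the part of these cells in the sums was not tested. The sums are a description of these libraries.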

How the data were processed

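Per the labels and the series' design text, RNA of medial prefrontal cortex was sequenced as single ends from a library biased to the 3' end, 1 library per animal number. What the authors deposited is a table of raw read counts by Ensembl gene for each library. Tools in the submitters' processing notes are HTSeq 0.11.0, Bowtie2 2.3.4.3, R 3.5.1, FastQC 0.11.8 and DESeq2 1.10.1, with the builds mm10 and GRCm38.p6. What each tool did, the strand setting and the treatment of reads with several matches are not stated there. Symbols were matched for 53620 identifiers, and coordinates come from GENCODE M21 (GRCm38). No pair of libraries was alike within sampling noise (lowest chi-square per degree of freedom 1.129).

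The main test ran in edgeR 4.0.16 under R 4.3.3, from the deposited counts, with filterByExpr at its defaults (minimum count 10, total 15), TMM scaling and a robust quasi-likelihood fit. Members under the filter were compared by the exact permutation test of CPM over 48620 assignments. Log2 CPM carry a prior count of 2. The edgeR fit and the permutation test were tested on simulated data. DESeq2 1.42.0, limma-voom (limma 3.58.1), other scalings and filters, thinning, a covariate for animal number and leaving out each library were alternatives. Named genes were the members, their relatives, called pathway genes with the 3 smallest p per list, and the 3 nearest genes by correlation. The members and lists were chosen with earlier results of these data known. Of the other marker lists, 8 astrocyte, 9 oligodendrocyte lineage and 8 endothelial genes were all tested and none was called. 1 called pathway gene is not reported here.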

Additional observations from a re-analysis of the deposited data

Results flagged for a closer look

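With 34 groups of 9 libraries examined, 18 of them of the members and the others of summed cell type markers, 4 held a library far from the rest, and chance flags about 1 in 20 groups. Among the members this was Syk in PLX5622 35, at 6.06 CPM where the next library had 3.44. Without it the CPM difference of Syk between the diets moved from -0.573 to -1.01. The other 3 were all control 3. Its blood myeloid markers summed to 206 CPM, where the next control had 20.9. Its homeostatic microglial genes summed to 661 CPM, where the next had 556, and its endothelial markers to 435 CPM, where the next had 354. Control 3 was also the highest control in 6 of the 9 members, and its part in their level was not tested beyond leaving it out.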

How the results depend on the processing

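No paired analysis was possible because the replicate numbers of the diets do not overlap. The number of genes lower with PLX5622, 39, was 65 with DESeq2, 92 without a count filter and 8 at a mean of at least 50 counts, where no member remained to be tested, and 38 to 50 when 1 library was left out. The number higher, 5, was 20 without a filter and 17 with the rank of the animal number within its diet as a covariate. The number was 10 at an adjusted p under 0.10 and 0 under 0.01. It was 0 at a mean of at least 50 counts and 2 to 13 without 1 library. The rank was centred in each diet, so that covariate cannot separate the diet from the animal numbers. The 2 lower pathway genes became 5 with DESeq2, 7 without a filter, 1 at a mean of at least 50 counts and 1 after thinning, and 2 to 3 without 1 library. The cause of the other shifts was not tested, while the filters change which genes are tested. Relative to the microglial genes Ptpn6 and Vav1 reversed to -0.0865 and -0.18 with a prior count of 0.5, and Vav1 passed at 0.53 with a prior count of 5 (exact permutation p = 0.0020). On the log2 scale the difference of Plcg2 was -0.58 (exact permutation p = 0.059), no longer past the threshold. With the log2 of summed microglial CPM, Pearson's r of Lyn in controls was 0.83 (exact permutation p adjusted 0.012, n = 9) and 0.70 without control 3. Leaving out 1 library kept Tyrobp called each time, at -1.22 to -1.05 (log2), and moved Inpp5d within -1.01 to -0.82 and Lyn within -0.97 to -0.82. Depth limits Syk, Plcg2, Vav1 and Ptpn6, which had 0 to 11 counts in a library.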
